A study of Mus musculus with 12 samples.

Results

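The colony-stimulating factors and their receptors were followed in 12 mouse 4T1 tumours. The 8 genes were the ligands Csf1, Csf2, Csf3 and Il34 and the receptor genes Csf1r, Csf2ra, Csf2rb and Csf3r, chosen by name and function, with earlier results of these data known, out of 35944 genes in the tables. All 8 passed the filter of at least 10 reads in at least 3 libraries, which 15461 genes passed. 4T1 is a mammary carcinoma line derived from BALB/c mice, in which it forms tumours under an intact immune system. Female BALB/c mice aged 6 to 8 weeks each received 100000 of these cells under the skin of the right flank. From day 5 they were injected beside the tumour every 2 days with 3 µg of extracellular vesicles (EVs), and tumour RNA was taken on day 21. The EVs came from the mouse endothelial line MS-1, a single line, and were loaded by electroporation with a miRNA mimic. The mimic was cel-miR-67, a nematode miRNA without a mouse counterpart (ctrl), or that of miR-222-3p, miR-142-5p or miR-183-5p, with 3 tumours in each group. All groups, ctrl included, therefore carried 4T1 tumours and received EVs, and none was left untreated.

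Colony-stimulating factors are secreted proteins that keep myeloid cells alive and drive their proliferation and maturation. CSF-1 (Csf1) and interleukin-34 (Il34) both bind the receptor tyrosine kinase encoded by Csf1r, on which most tissue macrophages depend. GM-CSF (Csf2) binds a receptor made of an alpha chain (Csf2ra) and a signalling beta chain (Csf2rb) that is shared with the receptors for interleukin-3 and interleukin-5. G-CSF (Csf3) acts through Csf3r and is the main growth factor of the neutrophil lineage. 4T1 tumours are known for releasing G-CSF and for the neutrophil excess of the mice that bear them.

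The depth was 20285968 to 27021401 estimated reads per library, and 14441 to 15437 genes had at least 10 reads. The libraries also fell into 2 sets that no label names, by how reads were shared between the mitochondrial gene mt-Co2 and its nuclear copy Gm28661. The copy held 7.13% to 41.8% of the reads of both in 8 libraries, and at most 0.324% in the 3 miR-222-3p libraries and that of miR-183-5p tumour 3. The miR-222-3p group and the library set cannot be told apart. For Csf3, Csf1r and Csf3r, and for some relations across tumours, values are also given without miR-183-5p tumour 3. The other differences with miR-183-5p, those of the gene lists among them, include that tumour, apart from ranges over fits that leave out 1 tumour. The tumours contained the cell types in which the receptors are known. All 14 macrophage markers and 12 of the 13 neutrophil markers were tested, while Elane, an enzyme of immature neutrophils, fell below the filter. Carcinoma keratins were high, Krt18 averaging 804 TPM. Of 8 skin markers only 2 passed the filter. The sum of 6 muscle and adipocyte markers was 174 TPM in miR-183-5p tumour 3 against 1.47 to 5.28 TPM in the others. That of 8 lymphocyte markers was 382 TPM in miR-142-5p tumour 3 against 20.6 to 60.8 TPM elsewhere. Their part in the results below was not tested.

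To examine whether the transferred miRNAs could pair with these transcripts, the seeds were compared with the 3′ untranslated regions (3′ UTRs). A miRNA mainly recognises a target through its seed, bases 2 to 8 from the 5′ end, shown here in capitals because the searched sites are their complements. The sequences are those of RefSeq on GRCm38.p6.
miR-142-5p (Mir142, chr11:87756867-87756887, plus strand): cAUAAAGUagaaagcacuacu
miR-183-5p (Mir183, chr6:30169711-30169732, minus strand): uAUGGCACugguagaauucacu
miR-222-3p (Mir222, chrX:19146901-19146923, minus strand): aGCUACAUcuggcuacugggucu
The 3 seeds differ. Among 14417 genes with an annotated 3′ UTR, 14.3% held the 7-base site of miR-142-5p, written ACTTTAT, on the transcript strand. The site of miR-183-5p, GTGCCAT, was present in 9.42% of these genes. That of miR-222-3p, which reads ATGTAGC, was present in 9.53%. Among the main coding transcripts of the 8 genes there was a single match to a 7-base site, for miR-183-5p in Csf1. It lies 1379 bases into the 2111-base 3′ UTR shared by Csf1-201 and Csf1-202, at chr3:107741774-107741780 on the minus strand of GRCm38, and is shown with the site in capitals.
Csf1 site: ctaccatactGTGCCATctctagcc
The transcript Csf1-203 ends in another 3′ UTR, of 259 bases, without this site. The only other match was for miR-142-5p in Csf1r-202, a minor transcript that averaged 2.09 TPM and 2.9% of the reads of Csf1r. These matches describe letters in the transcripts and are no measure of binding. Sites that pair with fewer bases of a seed were not searched.

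The ligand transcripts also differ in AU-rich elements, repeats of ATTTA in the 3′ UTR that are known to shorten the life of cytokine mRNAs. The densest stretch in Csf1, Csf2 and Csf3 is printed, with its pentamers in capitals, while Il34 held a single pentamer and is not shown. These are given because Csf2 and Csf3 were the members whose levels varied most. Any relation between the repeats and that variation was not tested.
Csf2 (chr11:54247329-54247349, minus strand): ATTTATTTATTTATTTATTTA
Csf3 (chr11:98702992-98703013, plus strand): ATTTAtctctATTTAatATTTA
Csf1 (chr3:107741109-107741125, minus strand): ATTTAaatatctATTTA
Csf2 held 9 pentamers in a 3′ UTR of 317 bases, 28.4 per 1000 bases, and 99.9% of genes had a lower density. Csf3 held 6 in 669 bases, or 8.97 per 1000 bases, above 98.6% of genes. Csf1, at 1.89 per 1000 bases, was close to the median gene at 1.21. The longer motif TTATTTATT occurred 4 times in Csf2 and in no other member, and in 7.42% of all genes.

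Among the ligands, Csf3 was the most abundant per unit of transcript length. In TPM (a level per length, scaled to the same sum in each library), it averaged 197 ± 113 (SD, n = 12), ahead of Csf1 at 94.8 ± 12.8 (SD, n = 12), and exceeded Csf1 in 10 of 12 tumours. Il34 averaged 42.2 ± 4.55 TPM (SD, n = 12). Csf2 was the lowest of all members at 8.78 ± 3.71 TPM (SD, n = 12). Among the receptors, Csf1r averaged 89.5 ± 24.3 TPM (SD, n = 12). Csf2rb followed at 47.9 ± 11.1 TPM, then Csf2ra at 40.8 ± 6.73 TPM and Csf3r at 34.0 ± 10.6 TPM (SD, n = 12 each). Csf1r exceeded Csf2rb, and Csf3r exceeded Csf2, in 12 of 12 tumours. The neighbours Csf2rb and Il34, and then Il34 and Csf2ra, kept their order in only 6 of 12 tumours, so those 3 levels were not separated.

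**Figure D1:**
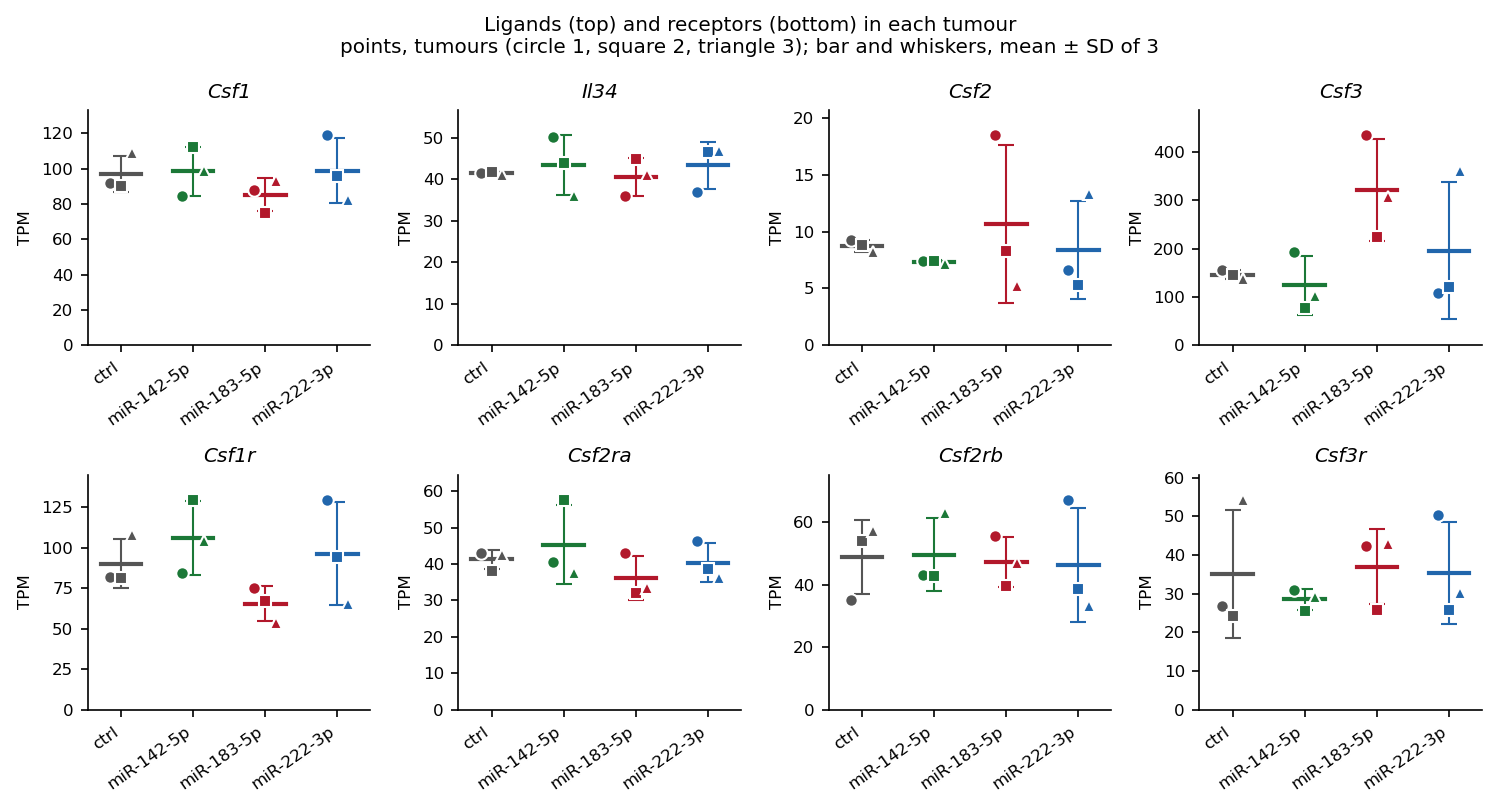
TPM of the 4 ligands (top) and the 4 receptors (bottom) in each of 12 tumours, by group, with points for tumours, a bar for the mean and whiskers for the SD of 3 tumours. For Csf3 the 3 miR-183-5p tumours, from 224 to 434 TPM, lie above all ctrl tumours, from 137 to 156 TPM, while for most other genes the groups overlap.

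The order changed when only protein-coding transcripts were counted, since several of these genes have annotated transcripts without a coding sequence. Csf2ra, the GM-CSF receptor alpha chain, fell from 40.8 to 9.53 ± 2.71 TPM (SD, n = 12). Transcripts other than coding ones made 71.1% to 86.2% of its TPM, led by Csf2ra-205, a retained-intron model of 632 bases that averaged 24.9 TPM. By reads, that model and the longer retained-intron model Csf2ra-202 held on average 31.5% and 19.6% of the gene. Models of that class held 5.19% to 6.60% of all matched reads of a library. For Il34 the part outside coding transcripts was 43.2% to 59.1% of the TPM, and the coding level was 19.8 ± 1.59 TPM (SD, n = 12). It was 6.5% to 34.5% for Csf2rb and 11.1% to 26.3% for Csf3r, at most 2.2% for Csf1 and at most 0.7% for Csf1r, and Csf2 and Csf3 have 1 transcript each. On the coding scale Csf2rb came to 37.8 ± 4.47 TPM and Csf3r to 27.3 ± 8.01 TPM (SD, n = 12 each). There, Csf2ra exceeded Csf2 in 7 of 12 tumours, so that these ligand and receptor levels were not separated.

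**Figure D2:**
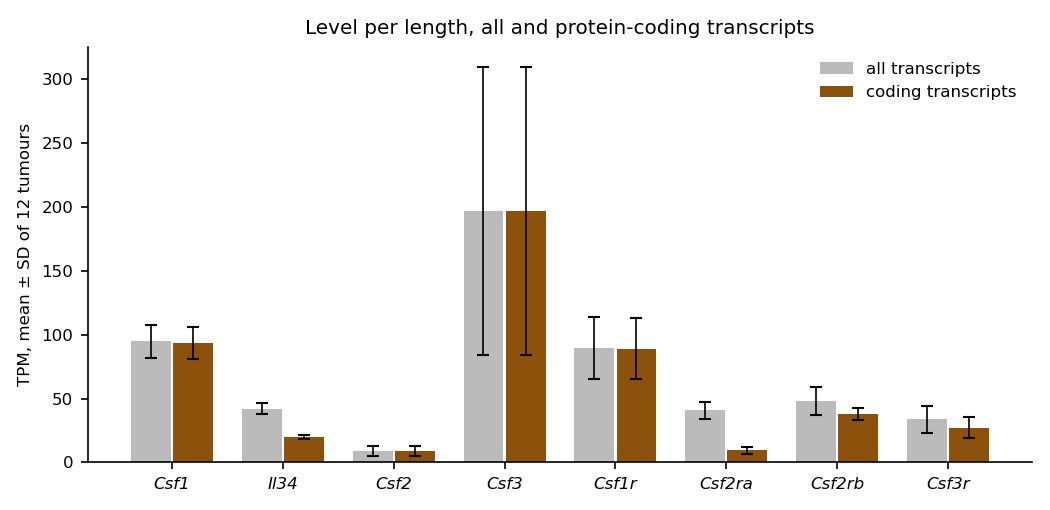
Mean TPM of each member over 12 tumours, with all transcripts (grey) and protein-coding transcripts only (brown), and whiskers for the SD. The bars differ most for Csf2ra (40.8 against 9.53 TPM) and Il34 (42.2 against 19.8 TPM).

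Csf1 was carried by long transcripts. Csf1-201, with a coding sequence of 1659 bases, held 53.1% of its reads on average and Csf1-202, with 774 coding bases and the same 3′ UTR, held 40.6%. Csf1-203, which has the long coding sequence but lacks the miR-183-5p site, held 3.89% ± 0.48 in ctrl, 4.41% ± 0.27 in miR-142-5p tumours, 5.41% ± 0.39 in miR-183-5p and 4.81% ± 1.63 in miR-222-3p tumours (SD, n = 3 each). In single tumours it was 3.62%, 3.59% and 4.45% in ctrl and 4.95%, 5.60% and 5.67% with miR-183-5p, so that these groups did not overlap. The miR-222-3p tumours ranged from 2.98% to 6.11%, over all the others. In a comparison added after the values were seen, the exact permutation p (two-sided) against ctrl was 0.1 for miR-183-5p, the smallest that 3 against 3 tumours allow, 0.3 for miR-142-5p and 0.4 for miR-222-3p. Csf1-204, whose 3′ UTR of 145 bases also lacks the site, was not higher, at 0.25% ± 0.17 in ctrl and 0.20% ± 0.19 with miR-183-5p. Of the transcripts with the site, Csf1-201 held 57.5% ± 6.86 and 53.0% ± 5.69 in these groups. Csf1-202 held 37.1% ± 7.21 and 39.7% ± 5.83 (SD, n = 3 each). Any part of the site in these shares was not tested. Csf3r-201 and Csf3r-202, which encode the same number of bases, held 75.1% and 20.8% of the Csf3r reads.

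The first comparison asked whether the ligands and receptors differed between tumours given a miRNA and those given ctrl-EVs. In the fit over all 12 tumours none of the 8 genes passed an adjusted p-value of 0.05 against ctrl in any group (DESeq2 Wald test, Benjamini-Hochberg over all genes). Few genes did so at all. The share called was 0.00649% with miR-142-5p-EVs, 0% with miR-183-5p-EVs and 0.0259% with miR-222-3p-EVs. At an unadjusted p-value under 0.05, the members numbered 0, 1 and 0, where 3.55%, 3.22% and 2.29% of all genes passed. By normalised count, the 3 tumours of the treated group did not overlap with those of ctrl in 0, 2 and 0 members, against 6.06%, 9.17% and 5.50% of all genes. By edgeR's quasi-likelihood test no member passed the adjusted threshold either. The median log2 fold change of the members was 0.04, -0.01 and 0.01, close to that of all genes at -0.005, -0.011 and -0.008.

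Csf3 showed the largest difference from ctrl among the members, in the miR-183-5p tumours. Its levels were 156, 145 and 137 TPM in ctrl tumours 1 to 3, and 434, 224 and 306 TPM in the miR-183-5p tumours. Every miR-183-5p tumour was above every ctrl tumour. The normalised read count was 6529 ± 2020 against 2949 ± 415 in ctrl (SD, n = 3 each), giving a log2 fold change of 1.15 (SE 0.59, DESeq2 with Benjamini-Hochberg adjusted p = 0.9998). The 95% interval of the difference, -0.02 to 2.31, just included 0. Without miR-183-5p tumour 3 and the other libraries of its set, it was 1.18 (DESeq2, Benjamini-Hochberg adjusted p = 0.9998). The outcome depended on which tumours set the estimate of the spread. With only the miR-183-5p and ctrl tumours in the fit, the same difference of 1.15 had an SE of 0.21 and a DESeq2 adjusted p = 0.000284, and that fit called 37 genes in all.

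The other groups were less uniform for Csf3. The miR-142-5p tumours had 193, 76.5 and 103 TPM, on both sides of the ctrl range. The miR-222-3p tumours had 108, 119 and 359 TPM, of which tumour 3 was as high as the miR-183-5p tumours. Relative to ctrl, the miR-142-5p group differed by -0.21 (SE 0.59) and the miR-222-3p group by 0.44 (SE 0.59) on the log2 scale, with DESeq2 Benjamini-Hochberg adjusted p-values of at least 0.9999. That of miR-222-3p rested on its tumour 3, without which it was -0.41. Csf2, the GM-CSF gene on the same chromosome, was at 9.25, 8.80 and 8.21 TPM in ctrl and at 7.41, 7.43 and 7.12 TPM in miR-142-5p tumours, groups that were apart in TPM but overlapped by normalised count. It varied more in the other groups, with 18.5, 8.29 and 5.20 TPM in miR-183-5p and 6.62, 5.28 and 13.3 TPM in miR-222-3p tumours. These values rest on 51 to 211 reads per library. The log2 fold changes of Csf2 were -0.25 (SE 0.45), 0.29 (SE 0.45) and -0.04 (SE 0.45), and that of miR-183-5p turned to -0.34 without its tumour 1.

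Csf1r, the receptor of CSF-1 and interleukin-34, lay in the opposite direction to Csf3. It stood at 81.7, 81.2 and 108 TPM in ctrl, 84.2, 130 and 104 TPM in miR-142-5p, 75.2, 67.0 and 53.8 TPM in miR-183-5p and 129, 94.2 and 65.5 TPM in miR-222-3p tumours. All 3 miR-183-5p tumours were below all ctrl and miR-142-5p tumours. Against ctrl the normalised read count was 4035 ± 636 in the miR-183-5p tumours and 5473 ± 681 in ctrl (SD, n = 3 each), a log2 fold change of -0.44 (SE 0.22, DESeq2 adjusted p = 0.9998 by Benjamini-Hochberg). It was -0.32 in the 8 libraries of the larger set. In whole tumours, fewer cells of a type and less RNA per cell cannot be told apart. Of the 14 macrophage markers, which exclude Csf1r, 11 were lower in miR-183-5p than in ctrl tumours with a median log2 fold change of -0.39, none at an adjusted p-value under 0.05. Their summed level was 3329, 3164 and 2001 TPM in miR-183-5p tumours 1 to 3 and 2981 to 4580 TPM in ctrl tumours. Tumours 1 and 2 thus lay within the ctrl range, and only tumour 3, of the other library set, lay below it. The median of the markers was not computed without tumour 3. C1qb, a complement subunit made by macrophages, had a log2 fold change of -0.45 (SE 0.21) and Lyz2, a myeloid lysozyme and the most abundant of the list, one of -0.52 (SE 0.32).

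For the remaining ligands and receptors the tumours of every group overlapped by normalised count with those of ctrl. Csf1 was at 91.8, 90.2 and 109 TPM in ctrl, 84.7, 112 and 98.3 TPM in miR-142-5p, 87.7, 75.1 and 93.1 TPM in miR-183-5p and 119, 95.7 and 82.2 TPM in miR-222-3p tumours. Its log2 fold changes lay between -0.16 and 0.04, and the interval for miR-183-5p, the miRNA with a site in its 3′ UTR, was -0.43 to 0.11. Il34, a ligand best known from skin and brain, was at 41.5, 41.7 and 41.1 TPM in ctrl and between 35.9 and 50.3 TPM in the other tumours. Its log2 fold changes were 0.08, -0.01 and 0.07 (SE 0.20 each). Krt1, Krt5, Lor, Flg, Ivl and Krtdap, the skin markers below the filter, were not tested.

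The receptor chains of GM-CSF and G-CSF were among these genes. Csf2ra was at 43.0, 38.1 and 42.5 TPM in ctrl and between 32.1 and 57.6 TPM in the other groups, with log2 fold changes from -0.17 to 0.15. Its coding transcript stood at 8.79, 5.27 and 12.1 TPM in ctrl, 8.04, 14.8 and 9.09 TPM in miR-142-5p, 8.76, 6.58 and 7.73 TPM in miR-183-5p and 12.6, 11.2 and 9.43 TPM in miR-222-3p tumours. Each miRNA group overlapped with ctrl on this scale, while all miR-183-5p tumours lay below all miR-222-3p tumours. By normalised count 9.06% of all genes were apart between those 2 groups, and Csf2ra over all transcripts was not. Csf2rb, the shared beta chain, was at 35.1, 53.9 and 57.0 TPM in ctrl and between 33.0 and 67.1 TPM elsewhere, with log2 fold changes from -0.08 to 0.04. Csf3r was at 26.8, 24.3 and 54.3 TPM in ctrl, 30.9, 25.4 and 29.2 TPM in miR-142-5p, 42.3, 25.7 and 42.8 TPM in miR-183-5p and 50.4, 25.7 and 30.1 TPM in miR-222-3p tumours. Its log2 fold change for miR-183-5p was 0.11 with an interval of -0.47 to 0.69. The ratio of Csf3 to Csf3r in TPM, over all transcripts, was 10.3, 8.72 and 7.16 in miR-183-5p tumours against 5.82, 5.97 and 2.53 in ctrl. It was 6.24, 3.01 and 3.52 in miR-142-5p tumours and 2.15, 4.66 and 12.0 in miR-222-3p tumours.

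**Figure D3:**
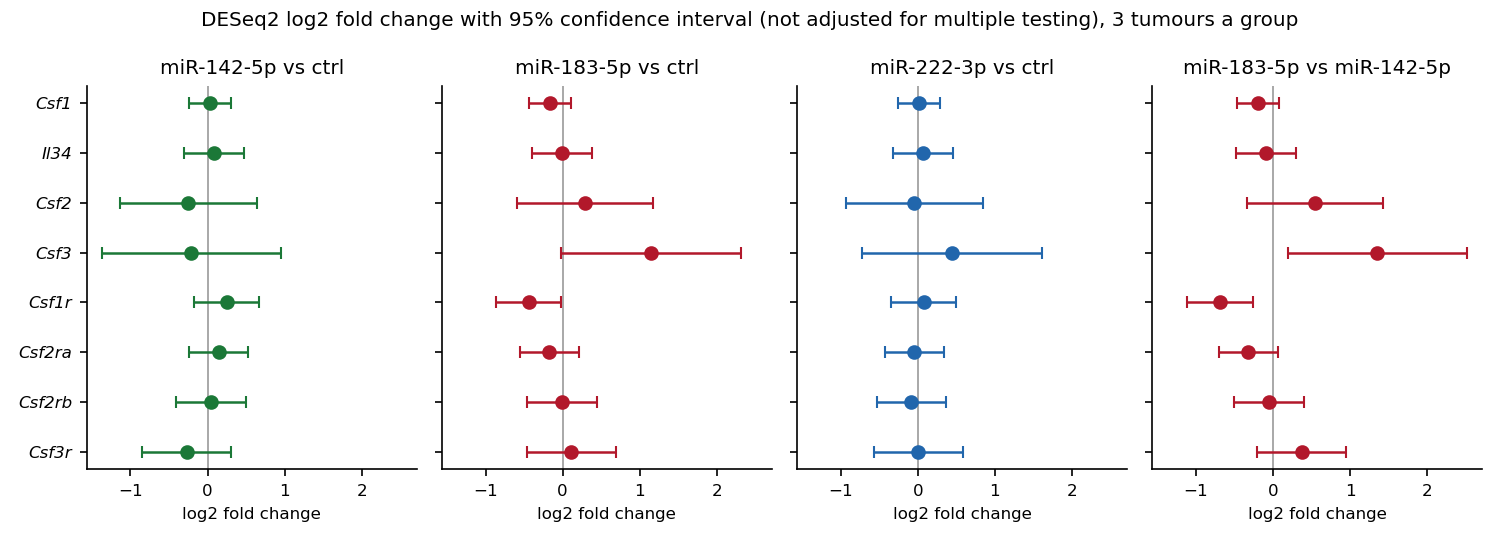
DESeq2 log2 fold change of each member (points) with its 95% interval (bars), for the 3 comparisons with ctrl and for miR-183-5p against the miR-142-5p group, with 3 tumours a group and intervals not adjusted for the number of genes. The intervals of Csf1r exclude 0 in both miR-183-5p panels and that of Csf3 in the panel against miR-142-5p, yet no member passed after adjustment.

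The miRNA groups were next compared with each other. The widest differences were those between miR-183-5p and miR-142-5p tumours. Csf3 was higher by a log2 fold change of 1.36 (SE 0.59, DESeq2 adjusted p = 0.502 by Benjamini-Hochberg), and Csf1r was lower by -0.69 (SE 0.22, DESeq2 adjusted p = 0.165 by Benjamini-Hochberg). For both genes the 3 tumours of each group did not overlap. Thus 2 of 8 members passed an unadjusted p-value of 0.05 and 2 did not overlap, where 7.95% and 12.3% of all genes did so. None passed after adjustment, against 0.0519% of all genes. Against miR-222-3p, Csf1r was lower in miR-183-5p tumours by -0.52 (SE 0.22, DESeq2 adjusted p = 0.9995 by Benjamini-Hochberg), and these groups overlapped. That was the only member of 8 at an unadjusted p-value under 0.05, where 3.24% of all genes passed, and none passed after adjustment (0.0324% of all genes). Between miR-142-5p and miR-222-3p no member passed at either level, against 3.59% and 0.0389% of all genes. A test for any difference among the 4 groups gave 1 member at an unadjusted p-value under 0.05, against 4.74% of all genes. This was Csf1r (DESeq2 likelihood ratio test, Benjamini-Hochberg adjusted p = 0.694), and none passed after adjustment (0.0584% of all genes).

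The calls between miRNA groups depended on which tumours were in the fit, including tumours outside the groups compared. With miR-222-3p tumour 3 left out, Csf3 passed in miR-183-5p against the miR-142-5p group (log2 fold change 1.35, DESeq2 Benjamini-Hochberg adjusted p = 0.0211), against the miR-222-3p group (1.55, adjusted p = 0.0222) and in the test over the 4 groups (adjusted p = 0.00523). These 3 comparisons called 29, 15 and 16 genes in all. With miR-142-5p tumour 1 left out, Csf1r passed in miR-183-5p against the miR-142-5p group (-0.79, DESeq2 Benjamini-Hochberg adjusted p = 0.0342), in a fit that called 415 genes. It also passed with only those 2 groups fitted (-0.69, DESeq2 Benjamini-Hochberg adjusted p = 0.0379), where 70 genes were called. In the fit over the 8 libraries of the larger set the 2 differences were 1.39 and -0.57, neither of which passed.

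The members differed widely in how much they varied between tumours irrespective of group. The SD of log2 normalised counts was 0.81 for Csf3 and 0.53 for Csf2, larger than in 98.2% and 93.8% of 12461 genes with a mean of at least 50 counts. It was 0.38 for Csf3r, 0.36 for Csf1r, 0.27 for Csf2rb, 0.23 for Csf2ra and 0.21 for Il34. Csf1 was the steadiest at 0.16, with 32.2% of genes varying less. Within groups the pooled SD of Csf3 was 0.68.

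To examine whether receptors followed the cells that bear them, 8 relations across the 12 tumours were tested, each as log2(normalised count + 1). Csf1r rose with the mean of 14 macrophage markers (Pearson r = 0.909, permutation p = 0.00011, Benjamini-Hochberg adjusted p = 0.00088). Spearman's rho was 0.832 (permutation p = 0.00142, adjusted p = 0.0114). The relation held without the 2 tumours farthest from the median of Csf1r (r = 0.774), after removal of group means (r = 0.881) and in the 8 libraries of the larger set (r = 0.870). Csf3r against the mean of 12 neutrophil markers gave r = 0.668 (permutation p = 0.0218, adjusted p = 0.0582) and rho = 0.734 (permutation p = 0.00849, adjusted p = 0.0226), and r = 0.837 without the 2 farthest tumours. Its r was 0.643 with group means removed and 0.865 in the 8 libraries, where it passed. The tumour farthest from the trend, miR-222-3p tumour 1, had high Csf3r (50.4 TPM) with neutrophil markers near the low end. Csf2rb, which several myeloid lineages express, gave r = -0.133 with the neutrophil markers (permutation p = 0.674, adjusted p = 0.770) and rho = -0.098 (permutation p = 0.765, adjusted p = 0.874).

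**Figure D4:**
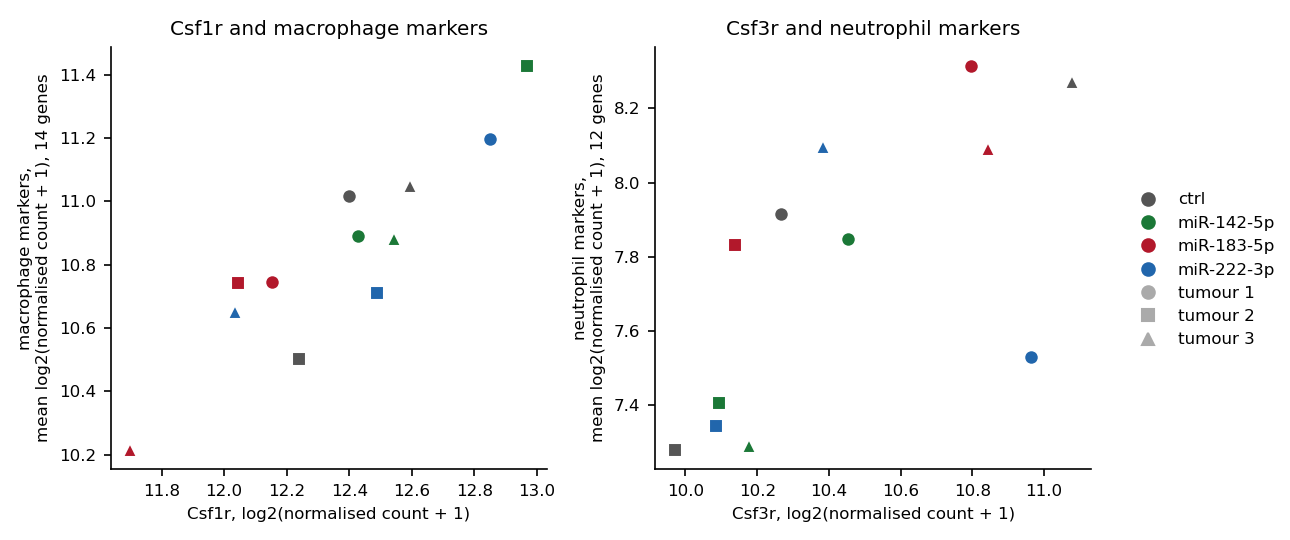
Mean log2(normalised count + 1) of macrophage markers against Csf1r (left) and of neutrophil markers against Csf3r (right), each point 1 of 12 tumours, coloured by group and shaped by tumour number. Csf1r and the macrophage markers lie along a line (r = 0.909), whereas miR-222-3p tumour 1 stands off the Csf3r trend (r = 0.668).

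The ligands were set against markers of cells known to produce them. Csf1 against fibroblast and endothelial markers gave r = -0.613 (permutation p = 0.0332, adjusted p = 0.0663) and rho = -0.706 (permutation p = 0.0127, adjusted p = 0.0254), and the r after leaving out the 2 farthest tumours was -0.593. It was -0.659 with group means removed and -0.764 in the 8 libraries, but only -0.296 on the log2(TPM + 1) scale. Csf3 against 6 carcinoma markers of 4T1 gave r = 0.473 (permutation p = 0.120, adjusted p = 0.192) and rho = 0.531 (permutation p = 0.0818, adjusted p = 0.131). Il34 against the 2 tested skin markers gave r = 0.066 (permutation p = 0.837, adjusted p = 0.837) and rho = 0.028 (permutation p = 0.939, adjusted p = 0.939). Of the 2 ligand and receptor pairs among these relations, Csf3 and Csf3r gave r = 0.265 (permutation p = 0.398, adjusted p = 0.531) and rho = 0.280 (permutation p = 0.378, adjusted p = 0.504). Csf1 and Csf1r gave r = 0.756 (permutation p = 0.00467, adjusted p = 0.0187) and rho = 0.776 (permutation p = 0.00419, adjusted p = 0.0168). This r was 0.644 without the 2 farthest tumours, 0.665 with group means removed (adjusted p = 0.0511) and 0.928 in the 8 libraries.

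All 28 pairs of members were then correlated across the tumours, a comparison added after the values were seen. After adjustment over the 28 pairs, 3 passed. Besides Csf1 and Csf1r, these were Csf3 and Csf1r (r = -0.841, permutation p = 0.00051, adjusted p = 0.0140; rho = -0.888, permutation p = 0.00026, adjusted p = 0.00728) and Il34 and Csf2rb (r = -0.829, permutation p = 0.00100, adjusted p = 0.0140; rho = -0.867, permutation p = 0.00062, adjusted p = 0.00868). The Csf3 and Csf1r relation was r = -0.903 without the 2 farthest tumours, -0.701 with group means removed and -0.800 in the 8 libraries. The permutation p-values of these were 0.00034, 0.0101 and 0.0187. They were not adjusted over the 28 pairs, so no pass is claimed for them. The relation over all 12 tumours was as large when only coding transcripts were used (r = -0.845 on log2(TPM + 1)). Tumours high in Csf3, which were the miR-183-5p tumours and miR-222-3p tumour 3, were the 4 lowest in Csf1r.

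The relation of Il34 and Csf2rb depended on which transcripts were counted. It was r = -0.964 without the 2 farthest tumours, -0.856 with group means removed and -0.758 in the 8 libraries, yet r = -0.019 (permutation p = 0.953) between the coding transcripts of the 2 genes on the log2(TPM + 1) scale. The levels of Csf2rb ran from 33.0 to 67.1 TPM with all transcripts and from 30.1 to 43.9 TPM with coding ones. For Il34 the corresponding ranges were 35.9 to 50.3 TPM and 17.0 to 22.0 TPM. The inverse relation was thus seen in totals that include the transcripts outside the coding class, and not between the coding transcripts.

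**Figure D5:**
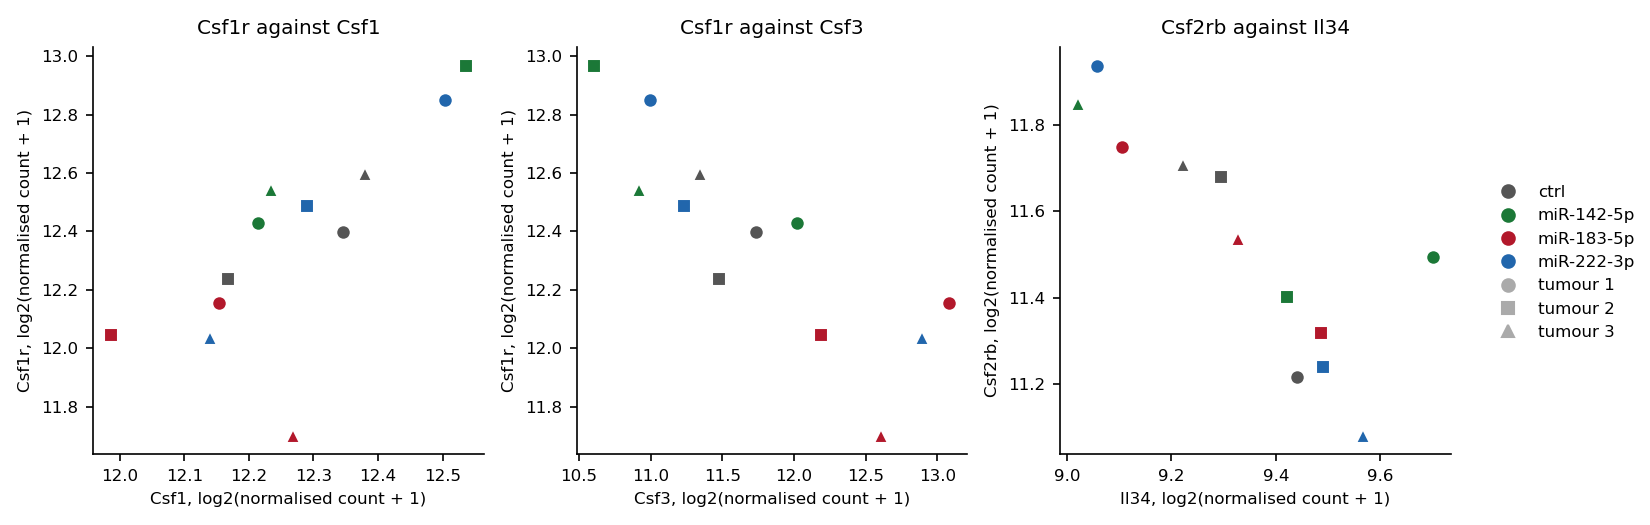
Log2(normalised count + 1) of Csf1r against Csf1 (left) and against Csf3 (middle) and of Csf2rb against Il34 (right), each point 1 of 12 tumours, coloured by group and shaped by tumour number. Csf1r rises with Csf1 (r = 0.756) and falls with Csf3 (r = -0.841), with the miR-183-5p tumours and miR-222-3p tumour 3 at the lower right of the middle panel. The inverse relation on the right (r = -0.829) is that of gene totals over all transcripts.

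The genes whose levels across the 12 tumours were most like each member were ranked by Pearson's r among 13223 genes with a mean of at least 1 TPM, as a description without a test. Csf1r was closest to Cyp27a1 (r = 0.959), Cd84 (r = 0.957) and Kcnj10 (r = 0.952), of which Cd84 encodes a leukocyte surface receptor and Cyp27a1 a mitochondrial sterol hydroxylase. Csf3r was closest to Osmr (r = 0.943), the oncostatin M receptor, then to Spatc1 (r = 0.918) and to Cxcr2 (r = 0.894), the chemokine receptor of neutrophils and 1 of the 12 markers above. Csf3 was closest to Cited2 (r = 0.943), Aldoa (r = 0.941) and Slc39a13 (r = 0.940), where Aldoa is a glycolytic aldolase and Cited2 a transcriptional co-regulator induced in hypoxia. Csf2 was closest to Hspg2 (r = 0.881), the basement membrane proteoglycan perlecan, then to Fkbpl (r = 0.880) and Plpp1 (r = 0.873). Csf2ra was closest to Fcgr3 (r = 0.898), a low-affinity Fc receptor of myeloid cells, then to Tha1 (r = 0.891) and Dnaaf3 (r = 0.875). Csf1 was closest to Gtf2ird2 (r = 0.923), Rab6b (r = 0.897) and Eef2kmt (r = 0.897). Il34 was closest to Atp6v1e1 (r = 0.957), Aph1a (r = 0.946) and Sdf2 (r = 0.943), and Csf2rb to Ctdspl2 (r = 0.945), Braf (r = 0.940) and Nktr (r = 0.936).

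Csf2rb has a close relative beside it, Csf2rb2, which in mice encodes the beta chain particular to interleukin-3. The genes lie 20030 bases apart on chromosome 15, and reads that fit both are divided by the quantification, so their split is uncertain. Csf2rb2 was at 7.2 to 13.6 TPM. Csf2rb held 77.5% to 83.4% of the reads of both, with means of 80.2% ± 0.97 in ctrl, 78.7% ± 1.56 in miR-142-5p tumours, 81.7% ± 1.55 in miR-183-5p and 79.5% ± 1.48 in miR-222-3p tumours (SD, n = 3 each). Over the 6 pairs of groups the exact permutation p-values (two-sided) were 0.2 to 0.7, where 3 against 3 tumours cannot go below 0.1. Interleukin-3 itself (Il3), whose gene lies 15635 bases from Csf2 on chromosome 11, had 0 to 4 reads per library, and Ptprz1, a proposed further receptor of interleukin-34, also had 0 to 4. Neither was tested.

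Genes around the receptors were examined as lists, and no list gene passed an adjusted p-value of 0.05 in any of the 6 comparisons (DESeq2, Benjamini-Hochberg). Of 23 genes of CSF receptor signalling 22 were tested. In miR-183-5p tumours 17 of them were lower and 5 higher than in ctrl, with a median log2 fold change of -0.24 against -0.011 over all genes, and 4 had an unadjusted p-value under 0.05, 1 of them higher and 3 lower, where 3.22% of all genes passed that level. Tyrobp, an adaptor of myeloid receptors and the most abundant of the list, averaged 437 TPM and had a log2 fold change of -0.30 (SE 0.15). Socs3, a feedback inhibitor of G-CSF receptor signalling, was at 71.9, 70.6 and 74.4 TPM in ctrl and at 102, 102 and 89.7 TPM in miR-183-5p tumours, with a log2 fold change of 0.46 (SE 0.18, DESeq2 adjusted p = 0.9998 by Benjamini-Hochberg). These groups did not overlap, as was the case for 9.17% of all genes by normalised count, and Socs3 is named because its p-value was the smallest of the list. In miR-142-5p and miR-222-3p tumours the medians of the list were 0.03 and -0.03.

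Of 10 genes known to induce CSF transcription 8 were tested, and Il17a and Il17f were below the filter. In miR-183-5p tumours 6 were higher and 2 lower than in ctrl, with a median log2 fold change of 0.16. Il6, named because its p-value was the smallest of the list, was at 2.0, 2.5 and 2.0 TPM in ctrl and at 7.5, 5.5 and 2.6 TPM in miR-183-5p tumours. These did not overlap, as was the case for 9.17% of all genes by normalised count. Its estimated reads did overlap, with 45 in miR-183-5p tumour 3 and 46 in ctrl tumour 2. The log2 fold change of Il6 was 1.27 (SE 0.46, DESeq2 adjusted p = 0.9998 by Benjamini-Hochberg), on 33 to 150 reads per library in these groups. Il1b, the most abundant inducer, was at 145, 224 and 237 TPM in ctrl and at 391, 214 and 279 TPM in miR-183-5p tumours, with a log2 fold change of 0.58 (SE 0.24). Of the 8 tested genes for related haematopoietic cytokines and receptors, 2 were higher and 6 lower than in ctrl with miR-183-5p, with a median of -0.31. Kitl, the ligand of the stem cell factor receptor, had a log2 fold change of -0.73 (SE 0.35), and Sdc1, a co-receptor for interleukin-34 and the most abundant of the list at 158 TPM, one of 0.35 (SE 0.23).

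Neutrophil markers were the list nearest to the G-CSF axis. Of the 12 tested, 8 were higher and 4 lower in miR-183-5p than in ctrl tumours, with a median log2 fold change of 0.28. The summed level of all 13 listed was 2406 to 3427 TPM against 1485 to 2167 TPM in ctrl, so that the sums did not overlap. Most of each sum came from S100a9, S100a8 and Mmp9. These averaged 1504, 748 and 475 TPM with miR-183-5p and 954, 478 and 279 TPM in ctrl. The mean log2(normalised count + 1) of the 12 markers, in which each counts equally, did overlap, at 8.31, 7.83 and 8.09 with miR-183-5p against 7.92, 7.28 and 8.27 in ctrl. S100a9, a calcium-binding protein abundant in neutrophils, had a log2 fold change of 0.68 (SE 0.33) and Ltf, a granule protein of maturing neutrophils, one of -0.40 (SE 0.39). In miR-142-5p and miR-222-3p tumours 11 and 10 of the 12 were lower than in ctrl, with medians of -0.30 and -0.16, and sums of 1085 to 2116 and 1312 to 2562 TPM. Against miR-142-5p, 10 of the 12 were higher in miR-183-5p tumours with a median of 0.72. Of 7 dendritic cell markers tested 5 were lower in miR-183-5p than in ctrl tumours, with a median of -0.22, and Itgax, the most abundant at 31.7 TPM, had a log2 fold change of -0.22 (SE 0.22). Of 6 carcinoma markers 4 were higher and 2 lower, with a median of 0.06, and of 8 fibroblast and endothelial markers 4 were higher and 4 lower, with a median of 0.15. The sums of the latter were 701 to 821 TPM in miR-183-5p and 369 to 695 TPM in ctrl tumours. The part of these cell types in the levels of Csf3 was not tested.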

How the data were processed

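RNA-Seq was performed on 12 tumours, 1 library each, from a stranded polyadenylated RNA kit. The authors quantified the reads with Salmon against Ensembl transcripts of GRCm38. The deposited tables give, per transcript, the effective length, the TPM as scaled by the authors' program and an expected count, that is, a read number estimated by Salmon and often fractional. The labels name Salmon and GRCm38 without a version, and the Ensembl releases named for the tables and in the methods differ, so the annotation used here may not be the authors' own. Transcripts were matched by identifier to GENCODE M21, and 116710 of 118783 (98.3%) matched, to 35944 genes. Unmatched transcripts held 0.633% to 0.671% of the reads and were not used here.

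These expected counts were added up by gene and rounded to integers, with the TPM-weighted effective length as an offset. A gene entered the fit with 10 reads or more in no fewer than 3 libraries (15461 genes, of which 15415 received an adjusted p-value). Groups were compared with DESeq2 1.42.0 (Wald test, and likelihood ratio test over the 4 groups) in R 4.3.3, with all 12 libraries fitted together and no covariate besides group. Benjamini-Hochberg adjustment covered all genes, with a threshold of 0.05. A script was tested on simulated data before use. The alternatives included edgeR 4.0.16. Normalised counts are on the DESeq2 scale with the length offset. P-values of relations come from 100000 resamples of the tumours, or from all permutations for 8 libraries, as exact values. Python 3.11.15, numpy 2.4.6, pandas 2.3.3, scipy 1.17.1 and matplotlib 3.10.9 were used. No source states that the tumours of a group came from separate cohorts, so the p-values measure the spread between these tumours. Depth was 20285968 to 27021401 reads, and reads without molecular identifiers are not independent molecules.

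Groups came from the sample labels. The 8 members and the gene lists were chosen with earlier results of these data known. The genes named were the members, Il3, Csf2rb2 and Ptprz1, the most abundant gene of a list and that with its smallest p-value against ctrl, and the 3 genes most like each member. Where a list's gene is named for 1 group only, its values in the others are left out for length. Seed sites and ATTTA repeats were searched on the transcript strand, in every coding transcript of the members and, for the shares over all genes, in the most abundant coding transcript of each gene with a 3′ UTR.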

Additional observations from a re-analysis of the deposited data

How the results depend on the processing

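The fit over all 12 tumours called no member, and neither did edgeR's quasi-likelihood test with TMM, DESeq2 with TMM factors, no count filter, at least 50 reads in every library, no transcript length offset, protein-coding genes only, Csf2rb and Csf2rb2 summed, or the 8 libraries of the larger set, an alternative chosen after seeing the data. With only the 2 groups compared in the fit, 1 member was called in miR-183-5p against ctrl (Csf3) and 1 in miR-183-5p against the miR-142-5p group (Csf1r). Those fits called 37 and 70 genes in all. Leaving out 1 tumour moved the count from 0 to 1 in miR-183-5p against the miR-142-5p group, in miR-183-5p against the miR-222-3p group and in the test over the 4 groups, through miR-142-5p tumour 1 or miR-222-3p tumour 3. In those comparisons 415 genes were called without miR-142-5p tumour 1, and 29, 15 and 16 without miR-222-3p tumour 3. Of 1032 values of members under the alternatives, 65 changed sign and 5 passed the threshold. Without the length offset the log2 fold change turned to -0.019 for Csf1 in miR-142-5p against ctrl, to 0.062 for Il34 and 0.035 for Csf2rb in miR-183-5p against ctrl, to -0.033 for Csf1 and 0.14 for Csf2ra in miR-222-3p against ctrl, and to 0.017 for Il34 in miR-183-5p against the miR-222-3p group. In the 8 libraries that of Csf3r in miR-183-5p against ctrl was -0.013. Csf3 and Csf1r kept their direction under all of these alternatives in miR-183-5p against ctrl and against miR-142-5p.

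When each tumour was left out in turn, 33 of 48 differences changed direction, with ranges given here from lowest to highest. The largest of them in the main fit was -0.65, for Csf3 in miR-142-5p against the miR-222-3p group. For miR-142-5p against ctrl these were the log2 fold changes of Csf1 -0.076 to 0.093, Il34 -0.088 to 0.25, Csf3 -0.75 to 0.049, Csf2ra -0.068 to 0.31, Csf2rb -0.10 to 0.13 and Csf3r -0.48 to 0.12. For miR-183-5p against ctrl they were those of Il34 -0.10 to 0.088, Csf2 -0.34 to 0.62, Csf2rb -0.15 to 0.094 and Csf3r -0.10 to 0.50. For miR-222-3p against ctrl they were those of Csf1 -0.085 to 0.10, Il34 -0.033 to 0.21, Csf2 -0.61 to 0.20, Csf3 -0.41 to 0.76, Csf1r -0.14 to 0.26, Csf2ra -0.11 to 0.052, Csf2rb -0.39 to 0.079 and Csf3r -0.28 to 0.40. For miR-183-5p against the miR-142-5p group they were those of Il34 -0.25 to 0.081, Csf2 -0.091 to 0.87 and Csf2rb -0.16 to 0.10. For miR-183-5p against the miR-222-3p group they were those of Il34 -0.21 to 0.026, Csf2 -0.30 to 0.91, Csf2rb -0.086 to 0.38 and Csf3r -0.076 to 0.38. For miR-142-5p against the miR-222-3p group they were those of Csf1 -0.093 to 0.12, Il34 -0.16 to 0.18, Csf2 -0.45 to 0.36, Csf3 -1.20 to 0.20, Csf1r -0.014 to 0.39, Csf2ra -0.024 to 0.35, Csf2rb -0.035 to 0.43 and Csf3r -0.45 to 0.0078.

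Among the relations, Csf3r with the neutrophil markers passed in the 8 libraries (r = 0.865), and its r was 0.583 to 0.850 when 1 tumour was left out. Csf1 with Csf1r no longer passed with group means removed (r = 0.665) and ranged from 0.659 to 0.934 without 1 tumour, the lowest being without miR-142-5p tumour 2. Il34 with the skin markers was -0.200 on the log2(TPM + 1) scale and -0.163 to 0.288 without 1 tumour. Csf2rb with the neutrophil markers ranged from -0.293 to 0.019 without 1 tumour, and Csf1 with the fibroblast and endothelial markers from -0.711 to -0.469. On the log2(TPM + 1) scale the latter relation was weaker, at -0.296. The cause of these changes was not tested.

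Tumour numbers did not pair the tumours. The mean correlation of deviations from group means was -0.068 between the 18 pairs of tumours with the same number and 0.033 between the 36 others, and 2 of 12 tumours correlated best with one of their own number. The fit with the number as a replicate block called no member either, with a log2 fold change of 1.09 for Csf3 and -0.46 for Csf1r in miR-183-5p against ctrl. With 3 tumours a group, differences of the size seen for Csf2, which rests on 51 to 211 reads, could not be resolved.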
